A study of Mus musculus with 6 samples.

Results

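The genes described here carry out the proteolytic release of the Notch receptor and its nuclear action. They comprise Rbpj, the Mastermind genes Maml1, Maml2 and Maml3, the gamma-secretase subunit genes Psen2, Ncstn, Psenen and Aph1a, and the protease gene Adam10. These 9 genes were chosen by symbol and known role from 51826 symbols in the count tables, and all 9 had a row in every library. When a ligand pulls on a Notch receptor, the membrane protease Adam10 cuts the receptor outside the cell. Gamma-secretase then cuts it within the membrane and frees the intracellular domain. In the nucleus this domain joins the DNA-binding protein Rbpj, which otherwise holds target genes with co-repressors, and together they recruit a Mastermind coactivator. An allele that supplies the intracellular domain itself does not need the protease steps but still acts through Rbpj and Mastermind, and in the mammary gland Notch signalling is known for its part in luminal fate.

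RNA-seq was performed on GFP-positive (GFPpos) and GFP-negative (GFPneg) mammary basal cells of pubertal C57B6/N mice with the genotype SMAcreERT2/N1ICD, with 3 libraries of each. These mice carry a Cre that tamoxifen activates, driven by the promoter of smooth muscle actin, and an N1ICD allele, named for the Notch1 intracellular domain. Mice of both groups received tamoxifen once at postnatal day 21, and cells were taken 72 hours later, at day 24. Each replicate was a pool of 2 to 3 mice from which both fractions were sorted, so both carry the Cre and the allele, and no library came from mice that lack them. The labels do not say what drives GFP.

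GFPneg replicate 1 stood apart. It held 611465 gene counts, of which 188291 lay outside 5 abundant noncoding features, while the other 5 libraries held 9912610 to 16043492 gene counts. A single count equalled 3.28 CPM (counts scaled by the effective library size, the library total times its TMM factor) in GFPneg replicate 1 and 0.0513 to 0.0911 CPM in the others. Of 4136 genes with at least 20 CPM in each of the other libraries, 517 (12.5%) had 0 counts there, whereas the same measure gave 0 genes for each other library. All 13 basal markers, among them Krt5, Krt14, Trp63 and Acta2, were detected in every library, and 12 of 13 had negative fold changes in GFPpos cells with 0 past the threshold. Immune markers stayed at or below 69.6 CPM in sum, with 6 of 12 at 0 in all GFPpos libraries. Endothelial markers (8 of 12 with positive fold changes) summed to 1349 to 3871 CPM in GFPpos and 822 to 2695 CPM in GFPneg libraries. The mean Notch1 level was 463 ± 41.7 CPM for GFPpos and 183 ± 81.4 CPM for GFPneg (SD, n = 3 each), with reads from the allele and the endogenous gene not separated.

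Rbpj binds DNA with the core sequence TGGGAA. The 250 bases upstream of RefSeq start sites are shown for Rbpj, Maml2, Maml3 and Psen2, which all held a match. Psenen and Aph1a also had a match in the search below and are not shown. Maml1, Ncstn and Adam10 had none and are not shown either. Maml2 and Psen2 each have 2 start sites in RefSeq, and the window that holds a match is shown; the other held none. The sequences are from RefSeq (GRCm38.p6, the assembly of mm10), 5′ to 3′ on the strand of the gene, with each TGGGAA or its reverse complement TTCCCA in capitals.
Rbpj (chr5:53590096-53590345, plus strand): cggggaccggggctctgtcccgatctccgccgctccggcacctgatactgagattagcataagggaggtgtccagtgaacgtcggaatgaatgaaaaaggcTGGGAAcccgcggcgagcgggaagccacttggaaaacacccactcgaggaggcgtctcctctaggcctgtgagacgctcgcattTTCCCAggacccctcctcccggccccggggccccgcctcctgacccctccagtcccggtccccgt
Maml2 (chr9:13662210-13662459, plus strand): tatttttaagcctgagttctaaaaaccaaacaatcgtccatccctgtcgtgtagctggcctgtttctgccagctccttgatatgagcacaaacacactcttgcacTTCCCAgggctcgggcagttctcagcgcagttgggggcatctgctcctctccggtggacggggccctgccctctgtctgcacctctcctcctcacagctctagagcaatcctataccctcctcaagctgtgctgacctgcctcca
Maml3 (chr3:52105007-52105256, minus strand): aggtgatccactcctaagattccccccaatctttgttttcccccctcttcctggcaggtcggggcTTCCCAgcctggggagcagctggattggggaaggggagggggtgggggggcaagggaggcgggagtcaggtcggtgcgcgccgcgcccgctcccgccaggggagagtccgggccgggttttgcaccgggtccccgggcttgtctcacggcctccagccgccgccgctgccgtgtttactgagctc
Psen2 (chr1:180245951-180246200, minus strand): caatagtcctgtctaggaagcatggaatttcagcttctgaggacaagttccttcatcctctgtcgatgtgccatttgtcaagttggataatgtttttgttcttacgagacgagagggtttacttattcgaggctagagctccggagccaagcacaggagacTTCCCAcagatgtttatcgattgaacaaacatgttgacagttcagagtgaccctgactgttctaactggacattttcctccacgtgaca
The motif was searched in windows from 250 bases before to 50 bases after each start site, on both strands. It was found in 7 of 13 windows of the 9 genes, and in 25.6% of 32851 windows in all. By gene these were 6 of 9 (Rbpj, Maml2, Maml3, Psen2, Psenen and Aph1a), against 28.3% of 27025 genes. The longer form GTGGGAA, which contains TGGGAA, lay in windows of Psen2 and Aph1a, 2 of 9 genes, against 7.25% of all genes. In the Rbpj window shown, the matches begin 149 and 65 bases before the start site, and the nearer one is also the match in the other Rbpj window, which overlaps this one. The Psen2 match begins 89 bases before its start site, the Maml3 match 185 and the Maml2 match 145. Windows of Maml1, Ncstn and Adam10 held no match to these letters.

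Rbpj, the DNA-binding core of the complex, had lower values in GFPpos than in GFPneg cells (chromosome 5, 53466152 to 53657362, plus strand, mm10). Its level was 2.36, 20.8 and 16.4 CPM in GFPpos replicates 1, 2 and 3, against 72.1, 25.2 and 50.2 CPM in GFPneg replicates 1, 2 and 3. The groups did not overlap, and GFPpos replicate 1 was the lowest of the 6 libraries with 26 counts. Mean levels were 13.2 ± 9.62 CPM in GFPpos cells, against 49.2 ± 23.5 CPM in GFPneg cells (SD, n = 3 each), a log2 fold change of -1.86 (SE 0.79, 95% interval -3.55 to -0.17). Over all genes tested this did not pass the threshold of 0.05 (edgeR's quasi-likelihood test, p adjusted by Benjamini-Hochberg = 0.850, unadjusted p = 0.0332). The difference was uneven among the pairs, with log2 ratios of CPM + 1 of -4.45, -0.26 and -1.56 in replicates 1, 2 and 3. The GFPneg replicate 1 value rests on 22 counts (exact Poisson 95% interval 45.2 to 109 CPM, counting error only). Without that library the groups still did not overlap, and the log2 fold change was -1.49 (SE 0.69, adjusted p = 0.559). Processed pseudogene copies of Rbpj are annotated on chromosomes 4 and 6, and how reads that fit several places were treated is not given, so counts of Rbpj are uncertain to that extent.

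Maml2, the highest Mastermind gene per kilobase of exon, also had lower values in GFPpos cells (chromosome 9, 13297957 to 13709388, plus strand). Mastermind proteins bind the composite surface of the Notch intracellular domain and Rbpj and bring in histone acetyltransferases. Maml2 stood at 77.6, 99.7 and 95.1 CPM in GFPpos replicates 1, 2 and 3, against 184, 112 and 175 CPM in GFPneg replicates 1, 2 and 3. All GFPpos libraries lay below all GFPneg libraries, and the GFPpos values were close together. The means were 90.8 ± 11.7 CPM in GFPpos cells, against 157 ± 39.3 CPM in GFPneg cells (SD, n = 3 each), with a log2 fold change of -0.78 (SE 0.42, 95% interval -1.67 to 0.11, edgeR adjusted p = 1.00).

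Maml3, the third family member, showed the same order of groups (chromosome 3, 51685907 to 52105076, minus strand). It had 16.9, 44.1 and 34.4 CPM in GFPpos replicates 1, 2 and 3, against 65.6, 46.4 and 78.3 CPM in GFPneg replicates 1, 2 and 3. The groups did not overlap, although GFPpos replicate 2 and GFPneg replicate 2 differed by a log2 ratio of -0.071. The log2 fold change was -0.99 (SE 0.56, 95% interval -2.19 to 0.21, edgeR adjusted p = 1.00).

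Maml1 did not share that order (chromosome 11, 50255634 to 50292311, minus strand). It had 59.8, 25.7 and 75.4 CPM in GFPpos replicates 1, 2 and 3, against 0, 56.3 and 74.9 CPM in GFPneg replicates 1, 2 and 3. The 0 in GFPneg replicate 1 allows up to 9.84 CPM (3 counts), below every other library. The groups overlapped, and the log2 fold change of 0.20 (SE 0.79, 95% interval -1.48 to 1.87) became -0.27 without GFPneg replicate 1. Summed over the 3 genes, Mastermind levels were 154, 169 and 205 CPM in GFPpos replicates 1, 2 and 3, against 249, 215 and 329 CPM in GFPneg replicates 1, 2 and 3. Maml2 made up 46.4% to 58.8% of these counts in GFPpos libraries and 52.1% to 73.7% in GFPneg libraries, and was the largest of the 3 in each library.

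**Figure D1:**
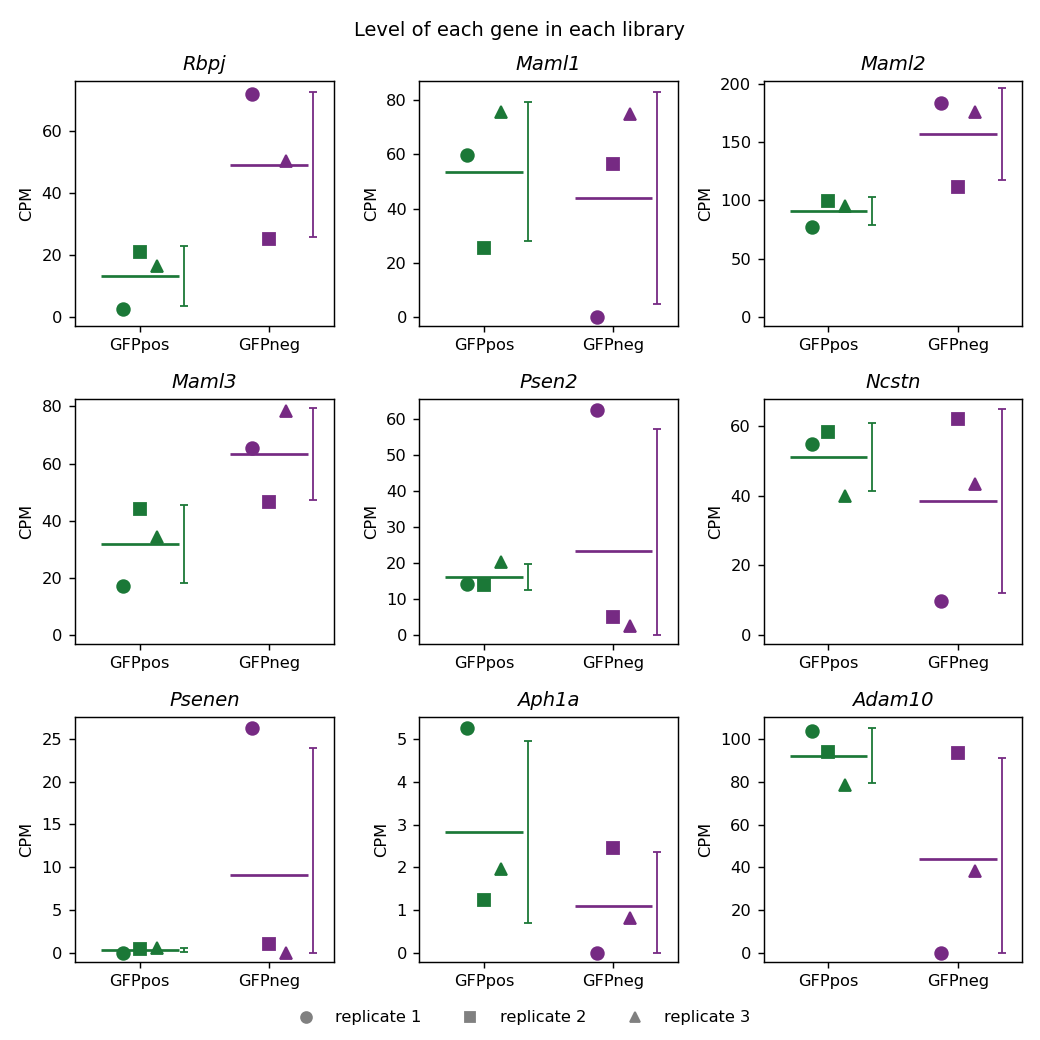
Level of each of the 9 genes in CPM (vertical axes, linear, each with its own range) in the 3 GFPpos libraries (green, left) and the 3 GFPneg libraries (purple, right), with marker shapes for the replicate. Horizontal lines are means and bars at the side are 1 SD, cut at 0. The groups do not overlap for Rbpj, Maml2 and Maml3, and GFPneg replicate 1 (circle) is at 0 for Maml1, Aph1a and Adam10 and highest for Rbpj, Maml2, Psen2 and Psenen.

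Rbpj, Maml2 and Maml3 were thus the 3 of 9 genes whose groups did not overlap, all lower in GFPpos cells, and all 3 pairs of each had a negative ratio. Among the 13873 genes tested, 3.63% were lower and 9.53% higher without overlap, and 8.07% had negative ratios in all 3 pairs. Without GFPneg replicate 1 these 3 genes were again lower without overlap, but then 13.9% of 15274 genes were. Basal markers had a median log2 fold change of -0.71, with 0 of 13 past the threshold and sums of 7759 to 9056 CPM in GFPpos and 9410 to 15622 CPM in GFPneg libraries. Fibroblast markers (6 of 7 tested negative) summed to 346 to 443 CPM in GFPpos and 777 to 1705 CPM in GFPneg libraries, with Lum and Pi16 at 0 in all GFPpos libraries and Lum also in all GFPneg libraries. Schwann cell markers (4 of 5 tested negative) summed to 104 to 148 CPM in GFPpos and 182 to 889 CPM in GFPneg libraries, with S100b and Cdh19 at 0 in all GFPpos libraries. In the other direction, luminal markers (10 of 13 positive) summed to 691 to 1070 CPM in GFPpos and 321 to 685 CPM in GFPneg libraries, and pericyte markers (7 of 8 tested positive) to 311 to 885 CPM in GFPpos and 59.0 to 247 CPM in GFPneg libraries. The part of these marker levels in the lower values of Rbpj, Maml2 and Maml3 was not tested. In such sorted bulk samples fewer cells of a type and less RNA per cell cannot be told apart.

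Gamma-secretase is a membrane protease of 4 kinds of subunit, and its genes followed no common direction. Psen2 encodes a presenilin, the catalytic subunit (chromosome 1, 180227004 to 180263438, minus strand). It had 14.0, 13.8 and 20.2 CPM in GFPpos replicates 1, 2 and 3, against 62.3, 4.93 and 2.46 CPM in GFPneg replicates 1, 2 and 3. The GFPpos libraries were alike, while GFPneg replicate 1 was above them and the other GFPneg libraries below. That library held 19 counts of Psen2 (exact Poisson 95% interval 37.5 to 97.3 CPM, counting error only). Over the 6 libraries the log2 fold change was -0.26 (SE 1.05, 95% interval -2.50 to 1.98, edgeR adjusted p = 1.00). Without GFPneg replicate 1 it was 2.13 (SE 0.68, 95% interval 0.65 to 3.61), the groups did not overlap, and the threshold was still not passed (edgeR adjusted p = 0.265, unadjusted p = 0.00872). In that set of 5 libraries 11.8% of 15274 genes were higher without overlap. With the replicate number as a block the log2 fold change was 0.97 (SE 1.25, edgeR adjusted p = 1), so the direction for Psen2 depends on GFPneg replicate 1 and on whether libraries are paired.

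Ncstn encodes nicastrin, the large glycoprotein subunit that receives substrates (chromosome 1, 172066013 to 172082795, minus strand). Its level was 55.1, 58.5 and 40.1 CPM in GFPpos replicates 1, 2 and 3, against 9.84, 62.3 and 43.5 CPM in GFPneg replicates 1, 2 and 3. Apart from GFPneg replicate 1, where it had 3 counts, the libraries of both groups covered the same range, from 40.1 to 62.3 CPM. The log2 fold change was 0.33 (SE 0.61), and -0.030 without GFPneg replicate 1 (95% interval -0.76 to 0.70, edgeR adjusted p = 0.995). An interval of that width leaves room for a difference of up to 0.76 on the log2 scale.

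Psenen and Aph1a, for the small subunits Pen-2 and Aph-1, were near the limit of detection. Pen-2 completes and activates the complex, and Aph-1 serves as its scaffold. Psenen (chromosome 7, 30561863 to 30563627, minus strand) had 0, 5 and 10 counts in GFPpos replicates 1, 2 and 3, against 8, 20 and 0 counts in GFPneg replicates 1, 2 and 3. It was the member that failed the filter on low counts, and the 8 counts in GFPneg replicate 1 scale to 26.2 CPM, while no other library exceeded 1.03 CPM. The zeros allow up to 0.272 CPM in GFPpos replicate 1 and 0.273 CPM in GFPneg replicate 3. Aph1a (chromosome 3, 95893969 to 95898288, plus strand) had 5.26, 1.24 and 1.97 CPM in GFPpos replicates 1, 2 and 3, against 0, 2.46 and 0.820 CPM in GFPneg replicates 1, 2 and 3. The 0 in GFPneg replicate 1 allows up to 9.84 CPM, above every other library, and 0.25 counts would stand there at the lowest level of the others. The groups overlapped, and a log2 fold change of 1.01 came with an interval from -2.08 to 4.10. Exons of genes on the opposite strand cover 12.9% of Aph1a exons (Car14), 9.33% of Psenen exons (U2af1l4) and 4.91% of Ncstn exons (Copa). The strand setting of the counting is not given, so these counts are uncertain there. Summed over Psen2, Ncstn, Psenen and Aph1a, the level averaged 70.4 ± 6.55 CPM in GFPpos cells, against 72.0 ± 25.8 CPM in GFPneg cells (SD, n = 3 each), and the groups overlapped. The sums were 74.4, 74.0 and 62.9 CPM in GFPpos replicates 1, 2 and 3. In GFPneg replicates 1, 2 and 3 they were 98.4 (from 30 counts), 70.7 and 46.8 CPM. Ncstn made up 63.8% to 79.1% of the summed counts in GFPpos libraries, against 10% in GFPneg replicate 1 and 88.1% and 93.0% in GFPneg replicates 2 and 3.

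Adam10, the protease that makes the cut outside the cell, had the highest level of the 9 genes per kilobase of exon in GFPpos cells (chromosome 9, 70678997 to 70780229, plus strand). It stood at 104, 94.1 and 78.7 CPM in GFPpos replicates 1, 2 and 3, against 0, 93.7 and 38.4 CPM in GFPneg replicates 1, 2 and 3. The GFPpos libraries were close together, and GFPneg replicate 2 lay among them. At the lowest level of the other libraries, 11.7 counts would stand in GFPneg replicate 1, which held 0 (up to 9.84 CPM). The log2 fold change was 0.96 (SE 0.73, 95% interval -0.61 to 2.52, edgeR adjusted p = 1.00). Its ratio was positive in all 3 pairs (6.72, or 3.28 at the upper limit of the 0, then 0.0071 and 1.02), as for 21.5% of all genes tested. The log2 fold change was 1.52 with the replicate block (95% interval 0.14 to 2.91, unadjusted p = 0.0309, edgeR adjusted p = 0.959), and 0.50 without GFPneg replicate 1 (95% interval -0.31 to 1.30).

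**Figure D2:**
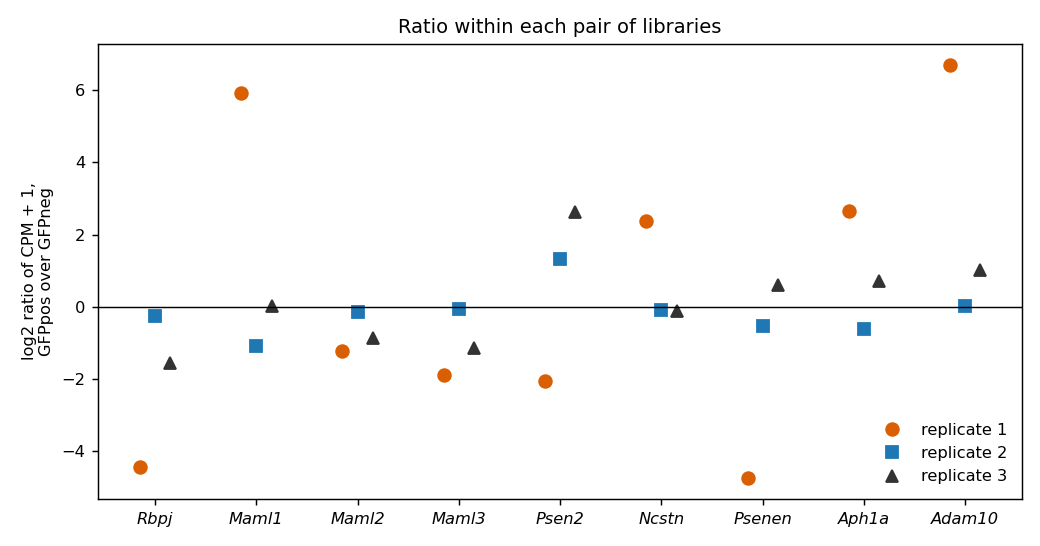
Log2 ratio of CPM + 1 in GFPpos over GFPneg cells (vertical axis) within each of the 3 pairs for the 9 genes, with marker shape and colour for the replicate and a line at 0. All 3 pairs are below 0 for Rbpj, Maml2 and Maml3, and above 0 for Adam10. The replicate 1 points of Maml1, Aph1a and Adam10 rest on 0 counts in GFPneg replicate 1, and at the upper limit of that 0 they would be 2.49, -0.79 and 3.28.

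Much of the spread came from GFPneg replicate 1. It had the highest value of the 6 libraries for 4 of 9 genes and the lowest for 4, Maml3 being the exception, and was extreme for 75.8% of all genes tested. For Aph1a, at 0 counts there, the rank cannot be read, since that 0 allows more than the level of every other library. The SD of the GFPneg values was 25.1% of the mean for Maml2 and 146% for Psen2. In GFPpos cells it was 12.9% for Maml2, 13.8% for Adam10 and 73.0% for Rbpj. In replicates 2 and 3 alone, mean levels were 18.6 CPM (GFPpos) and 37.7 CPM (GFPneg) for Rbpj. They were 97.4 and 144 CPM for Maml2, 17.05 and 3.69 CPM for Psen2, and 86.4 and 66.1 CPM for Adam10, each with the GFPpos mean before the GFPneg mean.

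**Figure D3:**
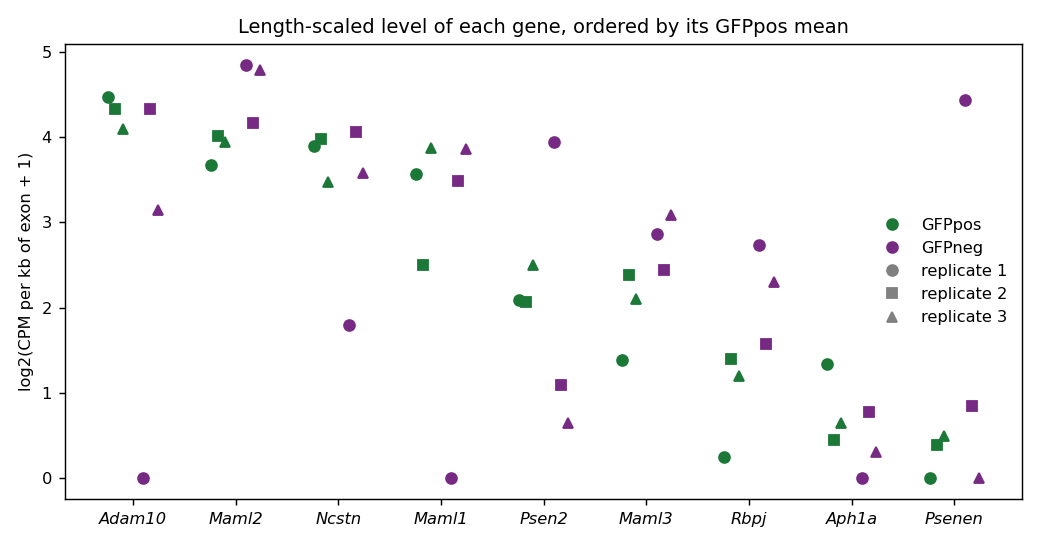
Level per kilobase of exon as log2(CPM per kb + 1) (vertical axis) for the 9 genes, ordered from left to right by the GFPpos mean, with 1 point for each GFPpos (green) and GFPneg (purple) library and marker shapes for the replicate. Adam10, Maml2, Ncstn and Maml1 lie highest in GFPpos libraries and Rbpj, Aph1a and Psenen lowest.

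Levels of different genes were compared per kilobase of exon. In GFPpos cells Adam10 averaged 18.8 ± 2.60 CPM per kb, Maml2 13.8 ± 1.77, Ncstn 12.9 ± 2.46 and Maml1 9.70 ± 4.60 CPM per kb (SD, n = 3 each). Psen2 averaged 3.70 ± 0.84, Maml3 3.03 ± 1.31, Rbpj 1.03 ± 0.755, Aph1a 0.819 ± 0.619 and Psenen 0.237 ± 0.212 CPM per kb. Of neighbours in this order, Adam10 and Maml2 were the pair whose ranges did not overlap. In GFPneg cells Maml2 averaged the highest at 23.8 ± 5.96 CPM per kb and Aph1a the lowest at 0.317 ± 0.364. In GFPneg replicates 2 and 3 alone Psenen (0.403 CPM per kb) was below Aph1a (0.476). The range of Rbpj in GFPpos cells overlapped that of Maml3. The summed Mastermind level per kb was 131, 14.7 and 24.3 times that of Rbpj in GFPpos replicates 1, 2 and 3, against 6.02, 16.0 and 12.1 times in GFPneg replicates 1, 2 and 3. These levels use the union of annotated exons, 12750 bases for Rbpj, against 5485 for its longest coding transcript. With longest coding transcripts Rbpj averaged 2.40 CPM per kb in GFPpos cells and 8.96 in GFPneg cells, there above Maml1 (7.91) and Maml3 (7.65). That order rests on GFPneg replicate 1, where Rbpj stood at 13.2 CPM per kb from 22 counts. In GFPneg replicates 2 and 3 Rbpj (4.59 and 9.15) was below Maml1 (10.2 and 13.5) and Maml3 (5.60 and 9.44). With longest coding transcripts the Mastermind sum was 58.1, 6.74 and 10.9 times the Rbpj level in GFPpos replicates 1, 2 and 3, against 2.78, 7.25 and 5.51 times in GFPneg replicates 1, 2 and 3. Ncstn moved ahead of Maml2 in GFPpos cells under that choice.

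**Figure D4:**
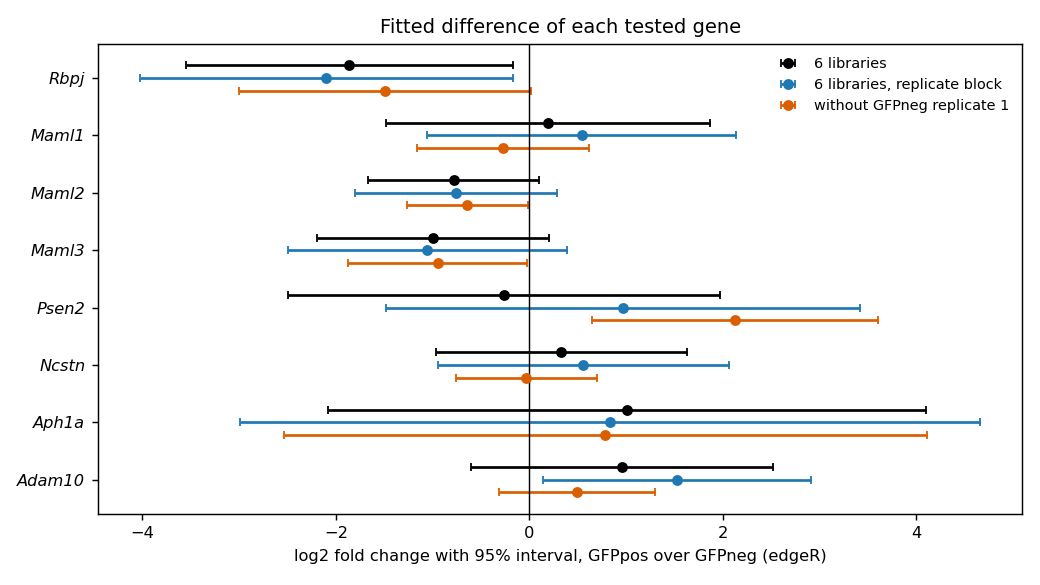
Log2 fold change of GFPpos over GFPneg cells with its 95% interval (horizontal axis) for the 8 tested genes in edgeR fits of 6 libraries (black), 6 libraries with the replicate block (blue) and 5 libraries without GFPneg replicate 1 (orange). Rbpj, Maml2 and Maml3 lie below 0 in each fit and Adam10 and Aph1a above, while Psen2 moves from -0.26 with 6 libraries to 2.13 without GFPneg replicate 1.

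Over all genes tested, 0 of the 8 tested members passed edgeR's threshold in either direction, and 1 (Rbpj) had an unadjusted p below 0.05. Among the 13873 genes the test called 0.0577% higher and 0.00721% lower, and at an unadjusted p below 0.05 the shares were 2.38% and 2.88%. Fold changes were negative for 4 and positive for 4 members (median log2 -0.032), beside a median of 0.15 for all genes tested. With the replicate block 0.310% of genes were called higher and 0.130% lower, again with 0 members. DESeq2 called 0.36% of genes higher and 0.346% lower, limma-voom 0.389% and 0.173%, upper quartile factors 0.0144% and 0.00721% (2 genes higher and 1 lower, beside 8 and 1 in the first test), and edgeR without GFPneg replicate 1 0.412% and 0.19%, each with 0 members.

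Other genes of the pathway were read from 5 lists, in which 0 of 59 tested genes passed in either direction with or without the replicate block. At an unadjusted p below 0.05 there was 1 higher gene (Nrarp) and 2 lower genes (Aph1b and Reck) of the 59. Among all genes tested the shares at that p were 2.38% higher and 2.88% lower. Of nuclear cofactors, 8 of 12 had positive fold changes (median log2 0.13). Nrarp, a feedback inhibitor that binds the nuclear complex, had 46.1, 37.6 and 51.6 CPM in GFPpos replicates 1, 2 and 3, against 0, 9.91 and 3.46 CPM in GFPneg replicates 1, 2 and 3 (log2 3.01, SE 0.80, edgeR adjusted p = 0.392). Its groups did not overlap, with GFPpos higher, as for 9.53% of all genes tested. Nrarp passed the threshold in edgeR without GFPneg replicate 1 (log2 2.76, SE 0.52, adjusted p = 0.0400). It also passed with the block without replicate 1 (log2 2.90, SE 0.55, adjusted p = 1.5e-05), as the 1 list gene called. Over all 15346 genes tested, that block fit called 386 higher and 216 lower. The fit held only 2 pairs, which limits what its adjusted p can show for Nrarp. Cdk8, a kinase that marks the intracellular domain for turnover, averaged 16.0 ± 5.62 CPM in GFPpos cells, against 36.5 ± 36.7 CPM in GFPneg cells. Its direction rested on GFPneg replicate 1, at 78.7 CPM from 24 counts, and without that library the log2 fold change was 0.062 (SE 0.55), beside -1.07 with it.

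Co-repressors of Rbpj were split, with 9 of 19 positive (median log2 -0.062). Hdac1, a histone deacetylase, averaged 10.96 ± 0.0882 CPM in GFPpos cells, against 31.6 ± 38.0 CPM in GFPneg cells, and Tbl1x, a component of the NCoR complexes, 96.5 ± 8.04 and 166 ± 80.9 CPM. For both the highest value was in GFPneg replicate 1. Without it the log2 fold change of Hdac1 was 0.20, beside -1.36 with it, and that of Tbl1x -0.32, beside -0.76.

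Among other processing genes 3 of 7 were positive (median log2 -0.13). Aph1b, which encodes an alternative Aph-1 subunit, had 0.725, 1.79 and 0.831 CPM in GFPpos replicates 1, 2 and 3, against 23.0, 3.85 and 6.29 CPM in GFPneg replicates 1, 2 and 3 (log2 -3.14, SE 1.31, edgeR adjusted p = 0.843). The groups did not overlap, with GFPpos lower, as for 3.63% of all genes tested, and with 8 to 23 counts in each GFPpos library. GFPneg replicate 1 held 7 counts of Aph1b, and without that library the log2 fold change was -2.16 (SE 1.35, edgeR adjusted p = 0.745). Aph1b and Aph1c are close copies, so their counts are uncertain. Bsg, a membrane glycoprotein found with gamma-secretase, averaged 252 ± 35.8 CPM in GFPpos cells, against 113 ± 77.2 CPM in GFPneg cells (log2 1.11, edgeR adjusted p = 0.959). GFPneg replicate 1 stood at 26.2 CPM from 8 counts of Bsg, and without that library the log2 fold change was 0.70.

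Of tetraspanins and inhibitors that act on Adam10, 3 of 7 were positive (median log2 -0.069). Reck, a membrane-anchored inhibitor of Adam10, had 10.7, 15.02 and 7.84 CPM in GFPpos replicates 1, 2 and 3, against 75.4, 22.6 and 50.02 CPM in GFPneg replicates 1, 2 and 3 (log2 -2.10, SE 0.69, edgeR adjusted p = 0.664, unadjusted p = 0.00822). Its groups did not overlap, with GFPpos lower, as for 3.63% of all genes tested. GFPneg replicate 1 held 23 counts of Reck, and without that library the log2 fold change was -1.68 (SE 0.50, edgeR adjusted p = 0.221). The tetraspanin gene Tspan17 averaged 0.502 ± 0.738 CPM in GFPpos cells, against 1.58 ± 2.00 CPM in GFPneg cells, and its groups overlapped. It was near the limit of detection, with 0, 2 and 26 counts in GFPpos and 0, 18 and 42 in GFPneg replicates 1, 2 and 3. The 0 of Tspan17 in GFPneg replicate 1 allows up to 9.84 CPM, above every other library. Of Notch trafficking and turnover genes 9 of 14 were positive (median log2 0.076). Eps15, an endocytic adaptor, averaged 96.2 ± 15.5 CPM in GFPpos cells, against 39.5 ± 34.3 CPM in GFPneg cells. Its groups did not overlap, with GFPpos higher, as for 9.53% of all genes tested. Its GFPneg libraries held 0, 60.9 and 57.7 CPM in replicates 1, 2 and 3. The log2 fold change was 1.16, and 0.72 without GFPneg replicate 1. Dtx1, a Deltex ubiquitin ligase gene, averaged 0.959 ± 0.987 and 7.25 ± 5.79 CPM, and its groups overlapped. GFPneg replicate 1 stood at 13.1 CPM from 4 counts of Dtx1. The log2 fold change was -2.77, and -2.14 without that library.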

How the data were processed

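Total RNA of sorted cells was sequenced in 6 paired-end libraries. For each library the authors deposited a table of gene symbols with whole-number counts. Per the submitters' processing notes, the tools were FastQC, cutadapt, TopHat2 and HTSeq, with mm10 as the build. Tool versions, the annotation release, and the strand and overlap settings of the counting were not given in these sources. The 5 summary rows were left out; reads assigned to no feature made up 28.8% to 66.4% of all rows.

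Groups, replicate numbers and pairs came from the labels and the series design, by which GFPpos and GFPneg cells of 1 replicate were sorted from 1 pool. Paired deviations correlated at -0.036, 0.122 and -0.0013 in replicates 1, 2 and 3. Between GFPpos and GFPneg libraries of different replicate numbers the correlations ran from -0.166 to 0.0993. The test was the quasi-likelihood test of edgeR 4.0.16 (R 4.3.3) with group alone in the design, after TMM scaling and a filterByExpr filter, with p-values adjusted over 13873 genes. CPM uses effective library sizes. The SE is the unshrunk log2 fold change divided by the square root of F. Intervals for counts and upper limits (3 counts for a 0) cover counting error only. Positions and exon lengths are from GENCODE M21. DESeq2 1.42.0, limma-voom (limma 3.58.1), other scalings and filters, the replicate block and leaving out each library were tried. Scripts were tested on simulated data.

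The 9 genes and the lists were chosen with earlier results of these data known. Text names all 9 genes, and in each list the genes past the threshold with or without the block, or otherwise the 2 with the smallest p. Marker lists check the labelled cell type. In luminal, endothelial and pericyte marker lists 0 genes passed (medians 0.77, 0.45 and 1.74), and in the block fit 1 luminal marker was higher and 2 Schwann cell markers were lower. P-values of the test with group alone measure the spread between libraries of the same fraction, and leave out the pairing by pool. Those of the fits with the replicate block take the pairing into account.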

Additional observations from a re-analysis of the deposited data

How the results depend on the processing

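No member passed the threshold in the other settings that tested it (17 for 7 of the genes and 16 for Aph1a, of which DESeq2 with the block gave no adjusted p), and the smallest adjusted p was 0.124, for Psen2 with the replicate block without replicate 1. At an unadjusted p below 0.05 DESeq2 had 0 members higher and 1 lower (Rbpj), and limma-voom 1 higher (Psen2) and 1 lower (Rbpj). The unadjusted edgeR p of Rbpj was 0.134 with library size only and 0.0581 with the block without replicate 1. It was 0.128, 0.0538, 0.0529 and 0.0654 without GFPpos replicates 1 and 3 and GFPneg replicates 1 and 3, in that order. In the remaining settings it was below 0.05. In edgeR without GFPneg replicate 1, unadjusted p was below 0.05 for Maml2 (0.0460), Maml3 (0.0451) and Psen2 (0.00872). The share of all genes at an unadjusted p below 0.05 was taken in the first test alone (2.38% higher and 2.88% lower). It was not taken for DESeq2, limma-voom or the fit without GFPneg replicate 1, so whether their member counts are unusual cannot be read. Log2 fold changes of Rbpj (-2.35 to -0.93), Maml2 (-0.99 to -0.45), Maml3 (-1.30 to -0.61) and Adam10 (0.50 to 2.00) kept their sign in all 17 and those of Aph1a (0.15 to 2.10) in the 16 that tested it. Without GFPneg replicate 2 the log2 fold change of Adam10 was 2.00, and without GFPneg replicate 1 it was 0.50. The sign turned for Psen2 with the replicate block (0.97), DESeq2 with the block (0.96), the block without replicate 1 (2.27), limma-voom (1.90), library size only (0.59) and without GFPneg replicate 1 (2.13). It turned for Maml1 with the block without replicate 1 (-0.54), limma-voom (-0.049) and without GFPpos replicate 3 (-0.11) or GFPneg replicate 1 (-0.27), and for Ncstn with the block without replicate 1 (-0.083), limma-voom (-0.0068) and without GFPneg replicate 1 (-0.030). Psenen was tested in 5 settings, with log2 fold changes of -5.31 to -3.99 and adjusted p of 0.554 to 1.00 (unadjusted p = 0.0232 without the low count filter and 0.0172 without GFPneg replicate 3). Leaving out a library gave -0.27 to 0.74 for Maml1, -0.91 to 2.13 for Psen2 and -0.030 to 0.82 for Ncstn. The cause was not tested. Scaling moved the median log2 fold change of all genes from 0.15 to 0.31 with library size only and to 0.025 with upper quartile factors.

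Over all genes 8 were higher and 1 lower. The replicate block gave 43 higher and 18 lower, the block without replicate 1 386 and 216 (2 pairs, so that p-values rest largely on the spread shared across genes), DESeq2 50 and 48, DESeq2 with the block 91 and 61, limma-voom 54 and 24, and no low count filter 65 and 236. Upper quartile factors gave 2 higher, library size only 5 and the filter of 5 CPM in 3 libraries 5. Leaving out a library gave 2 to 63 higher and 1 to 29 lower, with 0 members in each, and both highest counts came without GFPneg replicate 1. Without GFPneg replicate 2 the counts were 3 and 3, without GFPneg replicate 3 there were 11 lower, without GFPpos replicate 2 there were 4 lower, and without GFPpos replicates 1 or 3 there were 5 or 2 higher. The depth of GFPneg replicate 1 limits each statement that rests on its values.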
